A study of Mus musculus with 78 samples.

Results

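The Wnt ligands, the Frizzled receptors that bind them and the secreted proteins that hold them off were followed in mouse brain across 3 ages and 6 classes of mutant. Every gene whose annotated symbol starts with Wnt, Fzd, Sfrp or Dkk followed by a digit was taken, together with Frzb and Wif1. This gave 40 of the 18194 genes on the array, covered by 78 probe sets: 19 ligands, 10 receptors, 10 secreted inhibitors, and Fzd10os, a transcript named for the strand opposite Fzd10, which the symbol rule also takes and which is neither a ligand nor a receptor. Where a gene had several probe sets, the brightest on average was read. The symbol rule itself used no expression change, though it was chosen with earlier results of these data known.

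The series measured total RNA from brain on 78 Affymetrix arrays in 26 groups of 3 biological replicates, at embryonic day 14 (E14), the day of birth (P0) and postnatal day 14 (P14). At every age there were wild types of 2 mixed backgrounds, called WT mix background A and WT mix background B in the labels (mixed A and mixed B here). A wild type of inbred background, titled 129s6, was added at P0 and P14. The mutants carried alleles of genes whose loss disturbs neuronal migration: Ndel ko/+ and Ndel ko/cko, and Lis1 ko/+ and Lis1 ko/cko, at all 3 ages, Dcx ko/Y at E14 and P0, and 14-3-3 ko/ko (epsilon in the titles) at E14. On the inbred background there were Ndel ko/+ and 14-3-3 ko/ko groups at P0, and a further group of Ndel ko/+ on a mixed background was sampled at P14. The Cre driver that would recombine the cko alleles was not given in the sources used here, nor was the mixed wild type that belongs to each mutant, so a mutant group was called different only where it differed in the same direction from both mixed wild types. The p-values rest on the spread within groups of 3 samples that the labels call biological replicates, pooled over all groups of a fit. They do not measure the spread of the compared groups alone, and 3 samples a group limit the precision of every value.

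As background, a Wnt ligand is a lipid-modified secreted protein that binds a Frizzled receptor on the receiving cell. With the co-receptors Lrp5 and Lrp6 it stabilises beta-catenin, which then acts with Tcf and Lef factors on target genes. Without those co-receptors it can act on cell polarity and movement. Secreted frizzled-related proteins (Sfrp1, Sfrp2, Sfrp4, Sfrp5 and Frzb) carry a Frizzled-like domain and bind ligands outside the cell, Wif1 also binds ligands, and Dkk1, Dkk2 and Dkk4 block or modulate the co-receptors. In the brain the pathway is known for patterning the dorsal midline and midbrain, for the balance of neural progenitor division, for axon guidance and for the growth of brain vessels.

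Several libraries stood apart in ways that touch the results below. At E14, 6 of 24 arrays had a mean of 4.34 to 4.51 for a list of midbrain, hindbrain and spinal cord markers, against 5.03 to 6.63 in the other 18. They were replicates 2 and 3 of mixed A, replicates 1 and 3 of Lis1 ko/cko, and single arrays of Lis1 ko/+ (replicate 1) and of 14-3-3 ko/ko (replicate 2). At P0 and P14 the first principal component held 39.36% and 57.62% of the variance. It put mixed A, the Lis1 groups and the inbred groups on the same side. Mixed B with the other Ndel groups, and Dcx ko/Y at P0, lay on the other. The Ndel ko/+ group labelled mix lay with mixed A. The sides also differed at P0 in the 3′ minus 5′ signal of actin control probe sets, a sign of RNA quality or labelling. It was 0.122 to 0.214 on the side of mixed A and 0.274 to 0.449 on the other. The P14 ranges overlapped (0.497 to 0.956 and 0.627 to 0.717). The targeted genes checked the labels: at E14 Dcx stood at 12.06 in mixed A and at 4.58 ± 0.258 (SD, n = 3) in its own mutant, while Ywhae, the gene of 14-3-3 epsilon, was low in 1 of the 3 E14 libraries labelled 14-3-3 ko/ko (9.97, with 12.92 the highest) and in all 3 at P0 (mean 9.83 against 12.75). Ndel1 and Pafah1b1, the gene of Lis1, had means of 9.33 or more in each of their own mutant groups, so they check those labels poorly. The brain label was borne out by a list of neuronal markers at 10.38 to 12.07 on all arrays.

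Values are log2 intensities, on which a difference of 1 is a 2-fold change. A gene entered a test where at least 1 group averaged 5.253 (the overall median) or more, as 26 of the 40 did in the wild types: 10 ligands, 9 receptors, 6 inhibitors and Fzd10os. Because a filter of this kind keeps genes through the group where they are high, the 14 others are named here once. They were the ligands Wnt1, Wnt2, Wnt2b, Wnt3, Wnt3a, Wnt5b, Wnt8a, Wnt8b and Wnt11, the receptor Fzd5, and the inhibitors Dkk1, Dkk2, Dkk4 and Wif1, with values of 2.99 to 5.58 over all 78 arrays. Among them Wnt2 had medians of 3.83 at E14, 3.83 at P0 and 4.93 at P14, and all 9 wild-type arrays of P14 (4.64 to 5.43) lay above all 15 earlier ones (3.50 to 4.31). Wif1 went the other way after E14, with medians of 4.79, 3.50 and 3.79. These values lie where array background cannot be told from low expression, so they are given without a test.

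Between E14 and birth the Frizzled receptors Fzd1, Fzd2, Fzd3, Fzd7 and Fzd8 fell in the wild-type brain, and the inhibitor Dkk3 and the ligand Wnt4 rose. Of the 26 genes tested in both mixed backgrounds, 11 changed by limma's moderated test at a Benjamini-Hochberg adjusted p under 0.05 (2 rose and 9 fell), where 49.8% of all 12865 genes changed (14.8% rose and 35% fell). Of the 9 receptors 5 fell and none rose, of the 10 ligands 1 rose and 2 fell, and of the 6 inhibitors 1 rose and 2 fell. The median gene on the array fell by 0.19 on the log2 scale over this step, so changes with age are given relative to the median gene; each SE and p belongs to the change in the deposited values, before that subtraction. The median of the 26 genes on that scale was -0.01. In both mixed backgrounds the arrays of E14 and P0 did not overlap for 55.4% of all genes, so a lack of overlap is common in this step. Mixed A alone gave 17 calls (68.5% of all genes) and mixed B alone 15 (61.7%).

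Between birth and P14 the ligands Wnt9a and Wnt4 and the inhibitors Frzb and Dkk3 rose in both the mixed and the inbred wild types, and Sfrp1, Sfrp2, Fzd7, Fzd8, Fzd9, Wnt5a, Wnt7a and Wnt7b fell in both. In the mixed backgrounds 17 of 26 genes changed (9 rose and 8 fell), against 56.4% of all genes (34.3% up, 22.1% down). In the inbred wild type 19 of 26 changed (10 rose and 9 fell), against 71.7% (38% up, 33.8% down). Mixed A alone gave 18 calls (71.2% of all genes) and mixed B alone 19 (69.3%). Arrays of P0 and P14 did not overlap for 61.3% of all genes in both mixed backgrounds and for 72.8% in the inbred one. Of the 10 ligands, 5 rose and 3 fell in the mixed backgrounds. Of the 5, 3 (Wnt10a, Wnt16 and Wnt9b) had entered the test only through P14, where they are high. Their calls are thus fixed in part by the filter. Before P14, Wnt9a reached the filter only in the inbred P0 group, and narrowly, so the same limit touches its mixed call. Of the 9 receptors none rose and 3 fell, and of the 6 inhibitors 3 rose and 2 fell. The median gene moved by 0.13 in the mixed backgrounds and 0.04 in the inbred one, and the 26 genes had medians of -0.16 and 0.10 relative to it.

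The up and down counts depend on how the arrays are scaled between ages. With all arrays quantile normalized together, 3 genes rose and 6 fell from E14 to P0, and with each array centred on its median gene 4 rose and 6 fell. The share of all called genes that rose in that step went from 29.7% to 56.8% and 55.3%. For P0 to P14 in the mixed backgrounds the counts became 8 up with 9 down and 6 up with 10 down, while the share over all genes went from 60.8% to 53.5% and 46.1%. The inbred counts became 9 up with 9 down and 9 up with 10 down. No called gene changed its direction under either scaling.

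**Figure D1:**
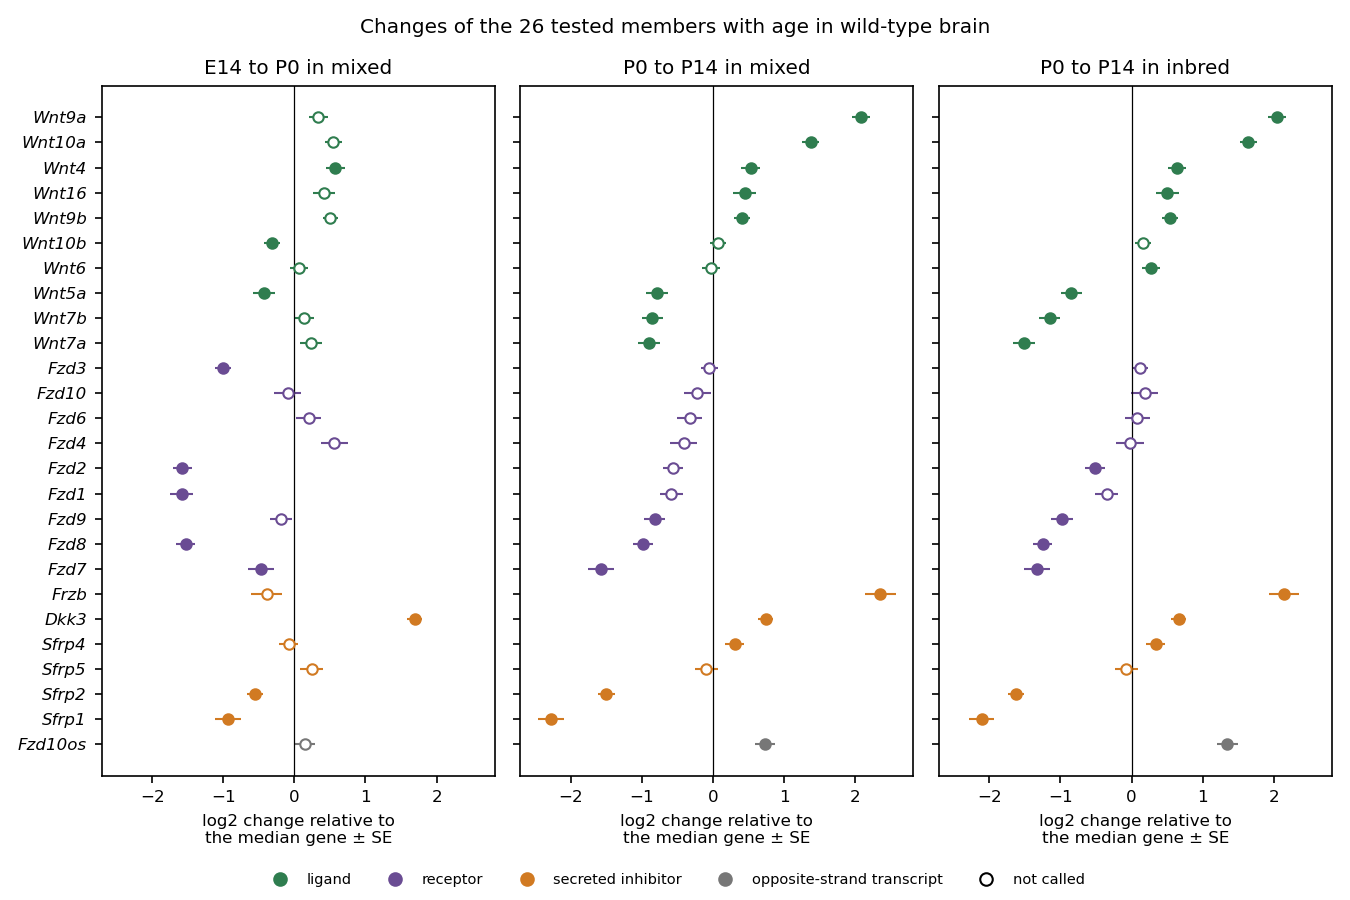
Change in log2 intensity relative to the median gene (x axis) for the 26 genes tested, in 1 row each, for E14 to P0 and P0 to P14 in the mixed backgrounds and P0 to P14 in the inbred wild type; points are estimates, bars are SE, filled points passed adjusted p under 0.05 and colours give the role. The 5 receptors that fell lie to the left of 0 in the first panel, and Frzb, Wnt9a and Wnt10a lie farthest to the right in the other panels.

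Among the ligands, Wnt9a, known from joint development, rose most after birth. Wnt9a read 5.38, 5.18 and 5.18 in mixed A and 5.37, 5.16 and 5.10 in mixed B at P0, and 7.49, 7.49 and 7.46 and 7.25, 7.54 and 7.41 at P14. The inbred arrays went from 5.28, 5.41 and 5.16 to 7.18, 7.54 and 7.39. The lowest P14 array was thus well above the highest P0 array in each background, and the E14 arrays read 4.70 to 5.38. The difference between P0 and P14 was 2.08 in the mixed backgrounds. It is given without a test, because the mixed P0 means lie just under the filter and near array background. The inbred P0 mean lies just over the filter, and there the rise was 2.04 ± 0.129 (SE; limma adjusted p = 1.81e-12).

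Wnt10a, known from tooth and skin, read 4.21, 4.13 and 4.27 in mixed A, 4.37, 4.59 and 4.44 in mixed B and 4.13, 4.04 and 4.50 in inbred pups at P0. At P14 the same groups read 5.83, 5.78 and 5.66, then 5.80, 6.11 and 5.86, then 5.86, 5.83 and 6.04. Again no P14 array reached down to the P0 range. The differences between the ages were 1.37 in the mixed and 1.64 in the inbred background. They are given without a test, because the P0 values lie under the filter and near array background and P14 alone brought the gene into the fit. The same holds for Wnt16, known from bone (0.45 and 0.50), and Wnt9b, known from kidney and palate (0.40 and 0.54), whose medians over all P0 arrays were 4.51 and 4.86. Their calls, counted above, are fixed in part by the filter, and with each array centred on its median gene neither was made in the mixed backgrounds. Wnt4, known from kidney and gonad, rose by 0.53 (limma adjusted p = 0.00306) in the mixed and 0.64 (6.93e-05) in the inbred background. Wnt6 changed by -0.03 in the mixed backgrounds (limma adjusted p = 1), where it was not called, and rose by 0.27 in the inbred one (limma adjusted p = 0.0304), a call lost under both scalings (0.138 and 0.118).

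Wnt7a and Wnt7b, the ligands through which neural cells guide brain vessel growth, were among those that fell after birth. Wnt7a read 8.14, 7.92 and 7.41 in mixed A, 7.38, 7.56 and 7.47 in mixed B and 8.28, 8.41 and 8.32 in inbred pups at P0. At P14 the values were 7.08, 7.29 and 6.98, then 6.63, 6.61 and 6.69, then 6.95, 7.05 and 6.61. P0 and P14 did not overlap within any background, and the inbred pups started highest. The change was -0.90 ± 0.155 (limma adjusted p = 0.000394) in the mixed and -1.51 ± 0.155 (1.7e-08) in the inbred background. The difference between the inbred and mixed steps was tested in a fit of all arrays and was called for 0 of 26 genes (0% of all genes). A second Wnt7a probe set went the other way: before the median gene was subtracted it rose by 0.72 in the inbred background (limma adjusted p = 7.82e-05) and changed by 0.32 in the mixed ones (adjusted p = 0.212), against -1.46 and -0.77 for the brighter probe set used here.

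Wnt7b changed by -0.86 ± 0.145 (limma adjusted p = 0.000194) in the mixed and -1.15 ± 0.145 (4.28e-07) in the inbred background. Wnt5a, a ligand known for polarity signalling, fell in both steps: by -0.43 ± 0.152 from E14 to P0 (limma adjusted p = 0.0197) and by -0.79 ± 0.152 from P0 to P14 (0.00443). Wnt5a had a median of 5.01 over all P14 arrays, under the filter and near array background. Its first fall was lost under 5 of the 22 other settings, among them both scalings across ages (adjusted p = 0.357 and 0.334). Its second probe set fell before birth (-0.70 before the subtraction, limma adjusted p = 0.00204) but was not called after it, with -0.28 in the mixed (adjusted p = 0.584) and -0.17 in the inbred background (0.405). Wnt4 was the 1 ligand that rose before birth. It read 6.39, 6.47 and 6.26 in mixed A and 6.53, 6.58 and 6.41 in mixed B at E14, and 6.86, 6.39 and 7.04 and 6.98, 6.93 and 6.74 at P0, so the mixed A arrays overlapped through replicate 2 of P0. The rise of 0.58 ± 0.131 (limma adjusted p = 0.0196) was lost under 7 of 22 other settings, including the one without mixed A replicates 2 and 3 at E14 (adjusted p = 0.113). Wnt10b had medians of 5.16, 4.71 and 4.91 over the arrays of E14, P0 and P14; it entered the fit only through E14, so its difference of -0.31 before birth, 1 of the 2 ligand falls counted, is given without a test.

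**Figure D2:**
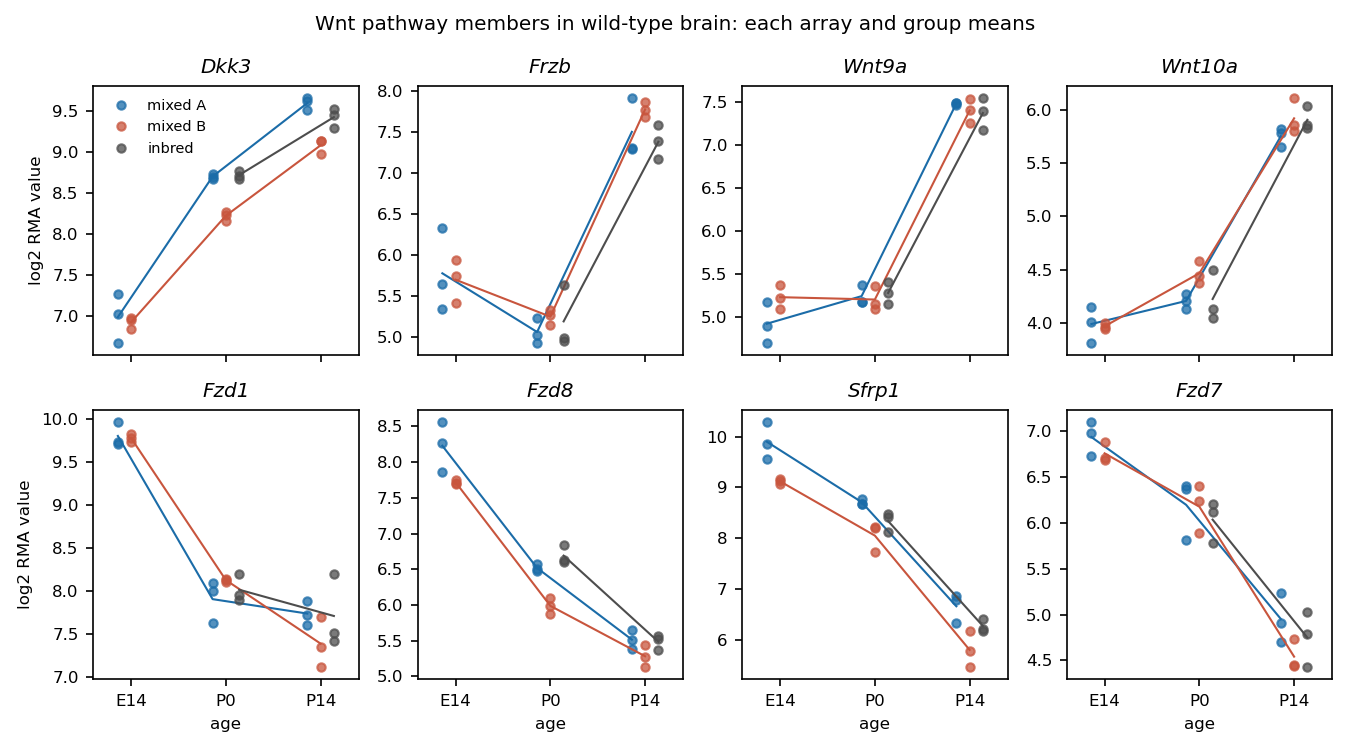
Log2 intensity (y axis) by age (x axis) of Dkk3, Frzb, Wnt9a, Wnt10a, Fzd1, Fzd8, Sfrp1 and Fzd7 in every wild-type array; points are arrays, lines join group means, with mixed A in blue, mixed B in red and inbred in grey. Wnt9a and Wnt10a are low until P0 and high at P14, and Frzb is lowest at P0 and highest at P14. Dkk3 rises in both steps, and Fzd1 falls mainly before birth.

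Of the receptors, Fzd1, Fzd2, Fzd3 and Fzd8 dropped steeply before birth. Fzd1 read 9.73, 9.71 and 9.97 in mixed A and 9.73, 9.82 and 9.78 in mixed B at E14, and 8.0, 8.09 and 7.63 and 8.11, 8.13 and 8.14 at P0. Fzd2, its close relative by sequence, read 8.80, 9.22 and 9.31 in mixed A and 8.48, 8.59 and 8.52 in mixed B at E14, and 7.47, 7.30 and 7.12 and 6.72, 6.99 and 6.71 at P0. In both, the ages were separated by more than the spread of either group. Relative to the median gene the changes were -1.59 ± 0.165 for Fzd1 (limma adjusted p = 1.89e-08) and -1.58 ± 0.14 for Fzd2 (7.82e-10).

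Fzd8, a high-affinity Wnt receptor, read 7.86, 8.27 and 8.56 in mixed A and 7.71, 7.70 and 7.75 in mixed B at E14. At P0 it read 6.50, 6.58 and 6.48, and 5.88, 6.10 and 5.98, and at P14 5.65, 5.51 and 5.38, and 5.13, 5.28 and 5.44. Mixed A lay above mixed B at E14 and P0 without overlap, and each age lay below the one before. The E14 difference was not called. Replicates 2 and 3 of mixed A at E14 were among the 6 arrays of low midbrain, hindbrain and cord level, which averaged 0.84 above the other 18. The changes were -1.53 ± 0.135 (limma adjusted p = 4.49e-10) before and -0.99 ± 0.135 (9.19e-05) after birth, with -1.25 ± 0.135 (3.99e-08) after birth in the inbred wild type, whose arrays went from 6.61, 6.63 and 6.84 to 5.57, 5.52 and 5.37.

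Fzd3, a receptor needed for axon tract formation, read 11.09, 11.00 and 11.08 and 11.02, 10.93 and 10.99 at E14, and 9.94, 9.95 and 9.31 and 9.87, 9.98 and 9.88 at P0, in mixed A and mixed B. The fall (-1.0 ± 0.116, limma adjusted p = 7.45e-08) was not followed by a called change of this probe set, which moved by -0.05 (adjusted p = 0.924) in the mixed and 0.12 (adjusted p = 0.212) in the inbred background from P0 to P14. Of the 4 other Fzd3 probe sets, 2 fell in that step in the inbred wild type (-0.95 before the subtraction, limma adjusted p = 4.98e-06, and -0.57, 0.00296), and none was called in the mixed ones. Fzd7, of the same sequence group as Fzd1 and Fzd2, fell mainly afterwards. It read 6.37, 6.40 and 5.82 in mixed A, 5.89, 6.24 and 6.40 in mixed B and 6.12, 5.78 and 6.21 in inbred pups at P0, and 5.24, 4.91 and 4.71, then 4.73, 4.45 and 4.44, then 4.43, 5.03 and 4.78 at P14. No P14 array overlapped P0. All these P14 arrays lay under the filter and near array background, so the size of the Fzd7 fall is less certain.

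The Fzd7 changes were -0.47 ± 0.183 before birth (limma adjusted p = 0.0107, for the deposited change of -0.66, and 0.165 and 0.114 under the 2 scalings across ages), then -1.57 ± 0.183 (3.34e-06) in the mixed and -1.33 ± 0.183 (1.54e-06) in the inbred background. Fzd9 changed by -0.19 before birth (adjusted p = 0.0998) and fell after it by -0.82 ± 0.152 (limma adjusted p = 0.00142) in the mixed and -0.98 ± 0.152 (9.19e-06) in the inbred background. Fzd2 was called after birth in the inbred wild type (-0.51, limma adjusted p = 0.00479) and narrowly not in the mixed ones (-0.56, adjusted p = 0.0636), where both scalings across ages called it. Fzd4, the receptor of Norrin in retinal vessels, and Fzd6 and Fzd10 passed the test in neither step on the probe sets read here, though Fzd10 was called before birth (-0.62 before the median gene was subtracted, limma adjusted p = 0.00711) without the mixed A arrays of low midbrain, hindbrain and cord level. The second Fzd4 probe set was called after birth, with 0.85 in the mixed (limma adjusted p = 0.00185) and 0.78 in the inbred background (0.000264), again before that subtraction, where the one read here gave -0.28 and 0.02. Probe sets of 1 gene also disagreed after birth in the mixed backgrounds for Fzd2 (-0.43 to 0.16) and Fzd3 (-0.51 to 0.08).

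The secreted inhibitors took opposite courses. Dkk3, a divergent Dickkopf protein, read 7.26, 7.03 and 6.67 in mixed A and 6.96, 6.97 and 6.85 in mixed B at E14, 8.69, 8.73 and 8.67 and 8.16, 8.23 and 8.27 at P0, and 9.62, 9.50 and 9.65 and 8.97, 9.13 and 9.13 at P14. The inbred arrays went from 8.71, 8.77 and 8.67 to 9.29, 9.52 and 9.45. Each age lay above the one before with no overlap within a background. The rise was 1.69 ± 0.105 (limma adjusted p = 7.4e-10) before birth, 0.74 ± 0.105 (2.37e-07) after it in the mixed and 0.66 ± 0.105 (2.95e-06) in the inbred background.

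Frzb, which binds Wnt ligands outside the cell, had the largest rise of the 26 genes after birth. It read 4.92, 5.02 and 5.23 in mixed A, 5.15, 5.26 and 5.32 in mixed B and 4.95, 4.99 and 5.63 in inbred pups at P0, and 7.91, 7.29 and 7.30, then 7.77, 7.86 and 7.68, then 7.17, 7.58 and 7.38 at P14. The ages were more than 1 log2 unit apart in every background. The rise was 2.35 ± 0.215 (limma adjusted p = 1.15e-09) in the mixed and 2.15 ± 0.215 (5.05e-09) in the inbred background. Frzb lay under the filter and near array background in the P0 means of these groups, so the size of the rise is less certain. Before birth its change was -0.39 (adjusted p = 0.0898). It was called in that step (change -0.86 before the median gene was subtracted, adjusted p = 0.0488) when the mixed A arrays of low midbrain, hindbrain and cord level were left out. Sfrp4 was 0.31 higher after birth in the mixed backgrounds. Its deposited change of 0.44 ± 0.132 passed (limma adjusted p = 0.0408), a call lost under 8 of 21 other settings, among them centring on the median gene (adjusted p = 0.813).

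Sfrp1 and Sfrp2, Wnt-binding proteins known from neural progenitors, fell in both steps. Sfrp1 read 9.55, 9.85 and 10.29 in mixed A and 9.17, 9.12 and 9.07 in mixed B at E14, then 8.68, 8.77 and 8.68 and 7.74, 8.23 and 8.19 at P0, then 6.79, 6.33 and 6.87 and 5.77, 5.47 and 6.17 at P14. The inbred arrays went from 8.41, 8.47 and 8.13 at P0 to 6.42, 6.22 and 6.18 at P14. The ages did not overlap in any background, and mixed A lay above mixed B at all 3 ages. At E14 this difference was not called. Replicates 2 and 3 of mixed A were then among the 6 arrays of low midbrain, hindbrain and cord level, which averaged 0.75 above the other 18. The changes were -0.94 ± 0.18 (limma adjusted p = 2.92e-05), then -2.28 ± 0.18 (1.06e-09) in the mixed and -2.11 ± 0.18 (6.9e-10) in the inbred background. Its 5 probe sets moved from -3.14 to -0.23 after birth in the mixed backgrounds, all downward, and from -3.03 to 0.29 in the inbred one, before the median gene was subtracted.

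Sfrp2 read 7.21, 7.15 and 7.26 in mixed A, 7.43, 7.52 and 7.47 in mixed B and 7.36, 7.55 and 7.32 in inbred pups at P0. At P14 it read 6.29, 6.0 and 6.19, then 5.72, 5.62 and 6.02, then 5.68, 5.88 and 5.91. Here mixed B was the higher background at P0 and mixed A was mostly the higher at P14. The changes were -0.55 ± 0.117 before birth (limma adjusted p = 0.000114) and -1.50 ± 0.117 (5.18e-08) and -1.63 ± 0.117 (4.11e-11) after it in the mixed and inbred backgrounds. Sfrp5 changed by 0.24 and -0.09 in the 2 steps of the mixed backgrounds and was called in neither. In the inbred wild type it changed by -0.03 after birth before the median gene was subtracted, and was not called. The second Sfrp5 probe set was called there (0.36, limma adjusted p = 0.00751), but not in the mixed backgrounds after birth (0.24, adjusted p = 0.0997).

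Fzd10os, which is no part of the protein family, read 5.16, 5.04 and 5.23 in mixed A, 5.61, 5.11 and 5.29 in mixed B and 5.16, 4.75 and 4.94 in inbred pups at P0, and 6.22, 6.04 and 5.88, then 6.21, 6.03 and 6.28, then 6.33, 6.49 and 6.22 at P14. All P14 arrays were above all P0 arrays. In mixed A and inbred pups the P0 means lay under the filter and near array background, so the size of the rise is less certain. The rise was 0.74 ± 0.143 (limma adjusted p = 2.52e-05) in the mixed and 1.35 ± 0.143 (9.92e-09) in the inbred background, whereas its neighbour Fzd10 changed by -0.22 (adjusted p = 1) and 0.19 (adjusted p = 0.289). In the RefSeq gene order of GRCm38.p6, 4 pairs of ligands lie side by side with no other protein-coding gene between them. In 3 of these 1 gene of the pair stayed under the filter: Wnt3a beside Wnt9a (Wnt3a P14 median 4.35), Wnt3 beside Wnt9b (Wnt3 P14 median 3.31) and Wnt1 beside Wnt10b. In the pair Wnt6 and Wnt10a both entered the fit. Differences within pairs were not tested.

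The promoters of the genes with the largest changes after birth are printed to show what sequence lies at transcript starts. Of the 40 genes, 27 have a promoter in the RefSeq table of build GRCm38.p6, as a window of 300 bases about a transcript start, which for Wnt9a and Sfrp2 lies inside the gene's listed span; Sfrp1, with the largest fall, has no entry. Shown 5′ to 3′ are the 2 largest rises with an entry, Frzb (chr2:80447347-80447646, minus strand) and Wnt9a (chr11:59306680-59306979, plus strand), and the 2 largest falls in the mixed backgrounds with an entry, Fzd7 (chr1:59481897-59482196, plus strand) and Sfrp2 (chr3:83766071-83766370, plus strand). Capitals mark the GC box, GGGCGG or its reverse complement CCGCCC, with overlapping copies run together.
Frzb: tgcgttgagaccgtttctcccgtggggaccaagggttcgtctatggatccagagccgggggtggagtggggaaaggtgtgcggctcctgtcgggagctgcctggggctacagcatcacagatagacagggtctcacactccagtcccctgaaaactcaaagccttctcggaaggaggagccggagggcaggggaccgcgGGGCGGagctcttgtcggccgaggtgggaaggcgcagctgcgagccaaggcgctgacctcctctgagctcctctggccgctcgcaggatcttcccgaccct
Wnt9a: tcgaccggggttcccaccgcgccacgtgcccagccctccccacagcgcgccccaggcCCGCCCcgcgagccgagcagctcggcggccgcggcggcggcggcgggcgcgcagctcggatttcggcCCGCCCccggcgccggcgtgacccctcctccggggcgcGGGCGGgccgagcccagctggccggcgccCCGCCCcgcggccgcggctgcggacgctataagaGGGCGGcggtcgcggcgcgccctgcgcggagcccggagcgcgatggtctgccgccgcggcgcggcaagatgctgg
Fzd7: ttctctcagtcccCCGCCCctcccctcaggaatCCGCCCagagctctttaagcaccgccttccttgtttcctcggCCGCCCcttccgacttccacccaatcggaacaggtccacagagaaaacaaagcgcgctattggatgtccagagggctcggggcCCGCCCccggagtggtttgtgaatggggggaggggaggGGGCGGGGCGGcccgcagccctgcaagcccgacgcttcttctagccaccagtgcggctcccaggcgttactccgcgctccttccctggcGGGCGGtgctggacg
Sfrp2: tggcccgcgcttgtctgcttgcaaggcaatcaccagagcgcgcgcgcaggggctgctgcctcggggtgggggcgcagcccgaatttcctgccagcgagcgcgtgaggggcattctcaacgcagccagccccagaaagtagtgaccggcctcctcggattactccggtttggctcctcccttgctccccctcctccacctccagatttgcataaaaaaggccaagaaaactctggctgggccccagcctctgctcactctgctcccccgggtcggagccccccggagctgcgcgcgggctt
Frzb held 1 GC box, Wnt9a 5, Fzd7 7 and Sfrp2 none, so neither the genes that rose nor those that fell shared a count. Wnt9a was the richest in G and C (83.3%, with 58 CG dinucleotides), and the others held 64.7% (Frzb, 20 CG), 66.7% (Fzd7, 24 CG) and 66% (Sfrp2, 22 CG).

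Over all 27 promoters the median G and C content was 70.7% with 27 CG dinucleotides, against 52.7% and 7 over the 27025 promoters of the table. A GC box lay in 21 of 27 (77.8%) against 35.9% of all promoters. The Tcf and Lef core ATCAAAG, searched on both strands with its reverse complement CTTTGAT, lay in 1 of 27, that of Wnt11 (3.7%), against 3.72% of all. The TATA box, TATAAA with TTTATA on the other strand, lay in 5 of 27 (18.5%) against 14.2%, and the CCAAT box, with ATTGG on the other strand, in 11 of 27 (40.7%) against 37.9%. The motifs were counted independently, and a match describes letters in this window only.

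Of the other genes of the pathway, 61 were tested in the wild types. From E14 to P0, 34 changed (6 rose and 28 fell), with no riser among the 12 nuclear factors, of which 6 fell, and 2 rising and 6 falling of the 10 targets and feedback genes. The largest falls were in Rspo3, a ligand that amplifies Wnt signals (-2.04), the transcription factors Tcf7l1 (-1.95), Lef1 (-1.94) and Tcf7l2 (-1.87, limma adjusted p = 0.0213). Tcf7l2 varied widely within an age, from 5.48 to 10.02 over all E14 arrays and from 3.66 to 8.69 over all P0 arrays. The largest rises were in Prickle1 (1.27) and Prickle2 (1.02), which act in planar polarity, Nkd2, a feedback inhibitor (1.20), and the catenin Ctnnd2 (0.88). From P0 to P14, 40 changed in the mixed backgrounds (17 rose and 23 fell) and 42 in the inbred one (17 rose and 25 fell). The medians of the 61 genes relative to the median gene were -0.09, -0.21 and 0.00 in these 3 steps.

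After birth the steepest falls in the mixed backgrounds were in Draxin, a secreted guidance protein that antagonises Wnt signals (-4.21), Tcf7l2 (-2.79, limma adjusted p = 0.0345), the beta-catenin partner Bcl9 (-1.92) and the polarity gene Vangl2 (-1.89). Over all arrays of an age, mutants included, the Tcf7l2 median was 4.20 at P0 and 4.13 at P14. Many P0 arrays were thus already near the P14 level, and the fall printed is that of the mixed wild types. Prickle2 (1.78), the formin Daam1 (1.41), Prickle1 (1.39) and Porcn, the enzyme that attaches the lipid to Wnt ligands (0.99), rose most. In the inbred background the list was led by Draxin (-4.27), Bcl9 (-2.32), Myc (-2.09) and Nkd2 (-2.02) downward, and by Prickle2 (1.55), Notum, which removes that lipid (1.27), Daam1 (1.19) and Prickle1 (1.07) upward.

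Cell type markers moved in the same steps, and in bulk RNA fewer cells of a type cannot be told apart from less RNA per cell. From E14 to P0, 8 of 10 radial glia markers fell and 1 rose, and 7 of 7 cell cycle markers fell; the mean of the cell cycle list went from 9.16 to 10.19 on the E14 arrays to 6.73 to 7.61 at P0 and 4.85 to 5.64 at P14, and that of the radial glia list from 9.57 to 9.99, to 8.39 to 8.68, and to 7.70 to 8.06. Lists of regions and blood moved as well: 3 of 5 thalamus, 4 of 9 midbrain, hindbrain and cord and 2 of 3 red blood cell markers fell before birth and none rose. The thalamus list had a median of 8.20 over the E14 and 5.0 over the P0 arrays, the red blood cell list 8.12 and 4.72, and the midbrain, hindbrain and cord list 5.24 and 4.15, with the 30 P0 arrays at 4.07 to 4.35 and the 6 low E14 arrays at 4.34 to 4.51. Whether the tissue taken was the same at each age is not given in the labels, so a difference in tissue and a change with age cannot be told apart. From P0 to P14, 7 of 8 astrocyte, 7 of 7 oligodendrocyte and 6 of 6 microglia markers rose. Their means went from 7.32 to 8.03, 5.41 to 5.76 and 5.99 to 6.90 at P0 to 9.68 to 10.51, 8.79 to 9.86 and 8.08 to 8.90 at P14. Array values have no zero, so no marker was at 0. Their part in the changes of the Wnt genes was not tested.

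Within E14, the 6 arrays of low midbrain, hindbrain and cord level also differed from the other 18 in several Wnt genes. In these 6 arrays Fzd8 (8.27 to 8.68 against 7.17 to 7.92 in the other 18), Wnt7b (9.05 to 9.33 against 8.42 to 8.87), Wnt7a (7.85 to 8.0 against 7.27 to 7.65) and Fzd2 (9.11 to 9.55 against 8.36 to 8.92) were higher without overlap. Fzd10 (5.32 to 5.86 against 6.06 to 6.65) and Wif1 (3.83 to 4.38 against 4.55 to 5.32) were lower without overlap. Sfrp1 (9.42 to 10.29 against 8.57 to 9.56) and Wnt5a (5.71 to 6.23 against 6.18 to 7.20) overlapped slightly. Over all genes tested at E14 the median absolute difference was 0.14 and 10.3% differed by over 0.5. The first principal component at E14, with 48.45% of the variance, also set these 6 arrays apart. The share of all genes without overlap in this split is not given here, so the lack of overlap cannot be called particular to the Wnt genes. The 6 arrays were picked by measured values, so this is a description with no test.

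**Figure D3:**
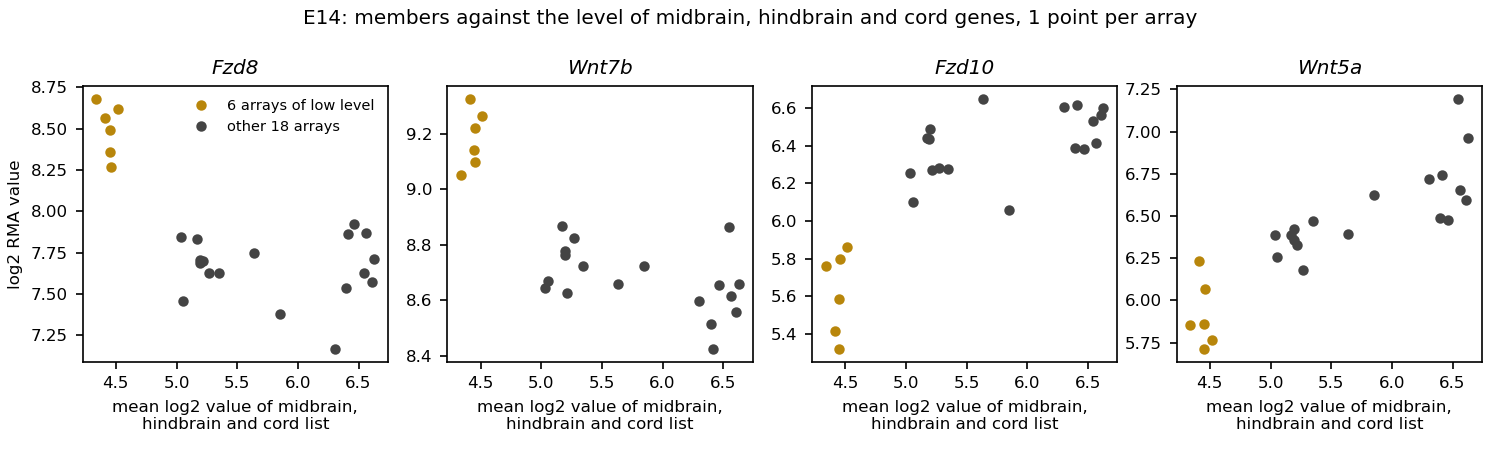
Log2 intensity of Fzd8, Wnt7b, Fzd10 and Wnt5a (y axes) against the mean log2 intensity of midbrain, hindbrain and cord markers (x axis) over the 24 arrays of E14; each point is an array, with the 6 arrays of low marker level in gold. Fzd8 and Wnt7b are higher and Fzd10 lower in the gold points, without overlap. The gold arrays were picked by measured values, and the share of all genes without overlap is not given.

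The 2 mixed wild types differed from each other in a few Wnt genes at P0 and P14, with Sfrp1, Fzd2, Dkk3 and Wnt7b called at both ages. The 3′ minus 5′ actin signal at P0 was 0.154 to 0.205 in mixed A and 0.277 to 0.358 in mixed B. Background and RNA quality or labelling cannot be told apart there, and their parts were not tested. At E14 limma called none of 22 genes (4 at an unadjusted p under 0.05), against 0.0681% of all genes. At P0 it called 5 of 22, all higher in mixed A, against 28.7% of all genes (18.1% higher): Sfrp1 (0.66 ± 0.144, adjusted p = 0.00136), Fzd8 (0.53 ± 0.157, 0.0129), Fzd2 (0.48 ± 0.103, 0.00102), Dkk3 (0.48 ± 0.119, 0.00396) and Wnt7b (0.41 ± 0.0916, 0.0015). In all 5 the arrays printed above, or for Wnt7b 8.87, 9.05 and 8.99 against 8.47, 8.64 and 8.56, did not overlap. The same held for 41.2% of all genes.

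At P14, 7 of 24 were called (6 higher and 1 lower in mixed A), against 52.7% of all genes (37.4% higher, 15.2% lower). The median gene was 0.14 higher in mixed A at this age, and the differences are given relative to it, with the SE and p of the deposited difference. Sfrp1 (0.72 ± 0.176, limma adjusted p = 0.000281), Fzd2 (0.58 ± 0.136, 0.000114) and Dkk3 (0.37 ± 0.0967, 0.000112) were again higher in mixed A. For Fzd2 the arrays read 7.02, 7.0 and 6.94 in mixed A and 6.25, 6.19 and 6.35 in mixed B, and neither it nor Sfrp1 nor Dkk3 overlapped. These 3 were called under both scalings across arrays. Wnt7a (0.33), Wnt7b (0.24) and Wnt4 (0.10) were called as deposited and not under those scalings, where the adjusted p of Wnt7a was 0.0692 and 0.106.

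Fzd4 was lower in mixed A at P14 (5.60, 6.16 and 6.27 against 6.49, 6.66 and 6.64, with no overlap). Its relative difference was -0.73 ± 0.183 (limma adjusted p = 0.00937), and without mixed A replicate 1 the adjusted p was 0.0952. With quantile normalization 3 genes were higher and 3 lower in mixed A, and with centring 3 and 4, where Frzb and Fzd6 (and Fzd3 with centring) joined the lower ones. The share of all called genes higher in mixed A went from 71.1% to 61.4% and 46.7%.

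Other pathway genes differed between the mixed backgrounds too. At P0, 20 of 58 were called (9 higher and 11 lower in mixed A), led by Tcf7l2 (-2.03, limma adjusted p = 0.0281), the receptor-removing ligase Znrf3 (-1.16) and the co-repressor Tle1 (1.06). At P14, 25 of 54 were called (15 higher and 10 lower), led relative to the median gene by the kinase Gsk3b (-1.09), Znrf3 (-1.04) and the feedback inhibitor Nkd1 (-0.96). Among markers, 4 of 5 of the thalamus list were lower in mixed A at P0 (median -0.94), 4 of 6 endothelial markers were higher, and 3 of 11 meningeal ones were higher. At P14, 7 of 11 meningeal and 4 of 6 endothelial markers were higher. The array means of the astrocyte list (10.32 to 10.39 in mixed A against 9.94 to 10.04), the oligodendrocyte list (9.62 to 9.76 against 8.99 to 9.32) and the cortex and hippocampus list (8.29 to 8.38 against 8.64 to 8.66) did not overlap at P14 either. The part of these in the Wnt differences was not tested.

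A share of the Wnt genes separated the groups by their side in the principal component. At P0 the group means of Fzd8 ran from 6.52 to 6.74 in the 6 groups of that side and from 5.83 to 6.10 in the other 4. Those of Wnt7b ran from 8.97 to 9.34 against 8.37 to 8.81, and those of Dkk3 from 8.53 to 8.72 against 8.01 to 8.38. At P14 Fzd2 ran from 6.89 to 6.99 against 6.15 to 6.26, and Sfrp1 from 6.26 to 6.89 against 5.68 to 5.80. In all, 8 of 22 genes at P0 and 12 of 24 at P14 had means that did not overlap between sides, where 33.9% and 59.5% of all genes did, so the Wnt genes were near the background in this. The component was computed from these same genes, so the values describe it and test nothing.

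**Figure D4:**
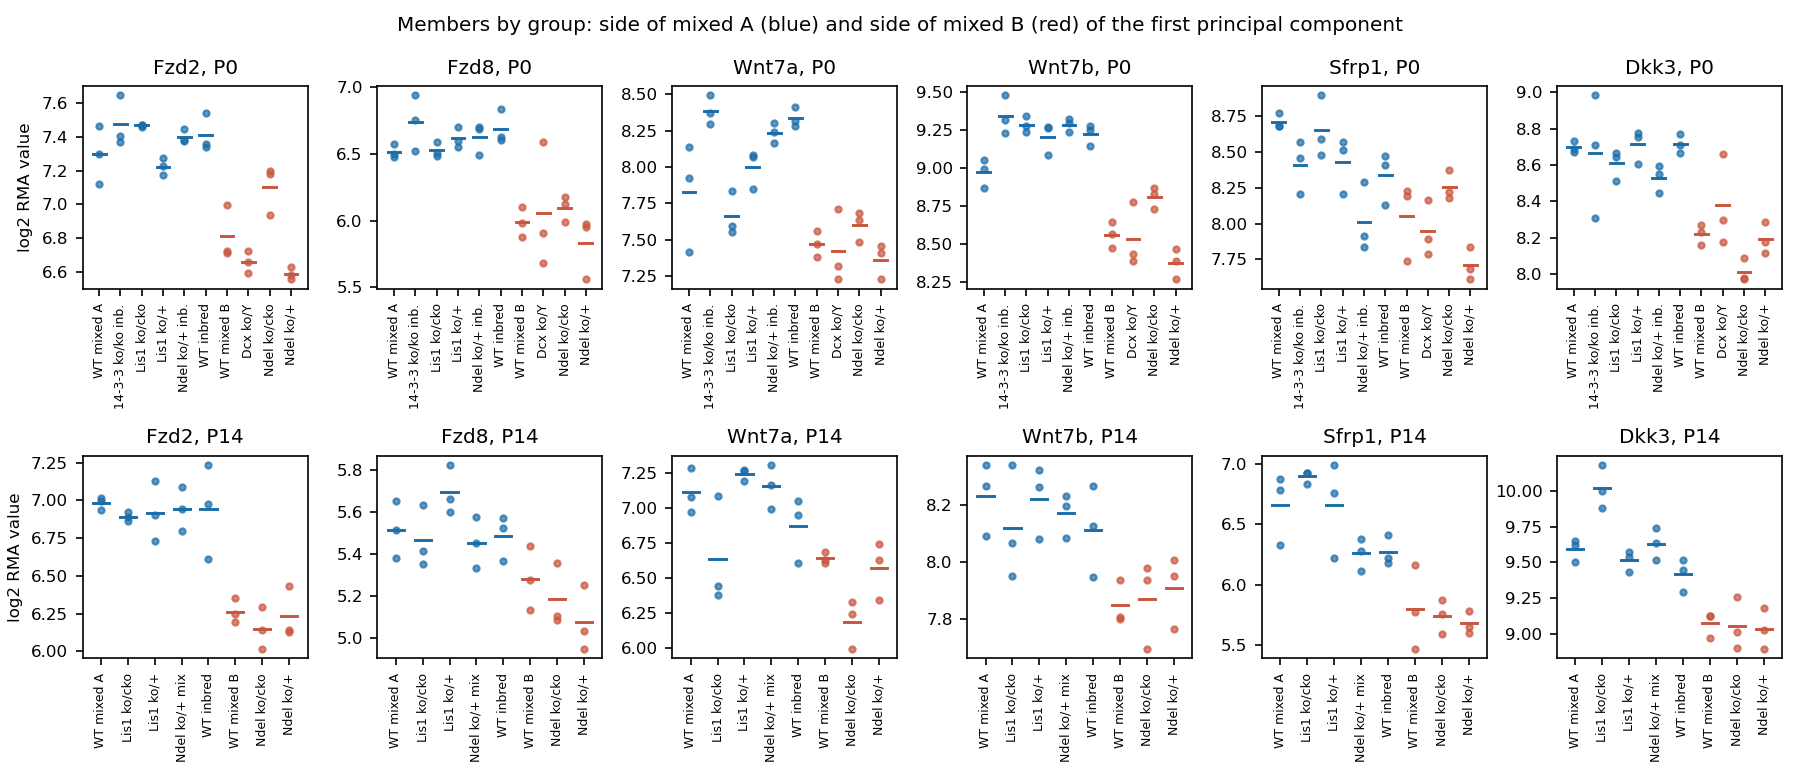
Log2 intensity (y axis) of Fzd2, Fzd8, Wnt7a, Wnt7b, Sfrp1 and Dkk3 in every group (x axis) at P0 (top) and P14 (bottom); small points are arrays and bars are group means, blue for groups on the side of mixed A and red for those on the side of mixed B. The group means of Fzd2, Fzd8, Wnt7b and Dkk3 separate the colours at both ages, while those of Sfrp1 overlap at P0 and those of Wnt7a at P14.

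Few Wnt genes were called in the mutants. When a mutant had to differ from both mixed wild types, limma called no gene of the family in any of 15 of the 16 comparisons. At E14 the 6 mutant groups gave 0 of 22 each (with 0 or 1 at an unadjusted p under 0.05), against 0% of all genes in Lis1 ko/+, Lis1 ko/cko, Ndel ko/cko and 14-3-3 ko/ko, 0.0341% in Ndel ko/+ and 0.0426% in Dcx ko/Y. In the 14-3-3 ko/ko group 2 of these 3 E14 arrays go against the label by their Ywhae level, so its count says little about the mutant; the array left without them, assumed to vary like the other groups, also gave 0. At P0 the counts were 0 of 22 in Lis1 ko/+ (1 gene at an unadjusted p under 0.05; 0% of all genes called), Lis1 ko/cko (1; 0.331%), Ndel ko/+ (4; 4.05%), Ndel ko/cko (1; 0.849%) and Dcx ko/Y (0; 0.0255%). At P14 they were 0 of 24 in Lis1 ko/+ (0; 0%), Ndel ko/+ (0; 0%), Ndel ko/cko (1; 0.0895%) and the Ndel ko/+ group labelled mix (0; 0.114%). Against the inbred wild type at P0, limma called 0 of 22 in Ndel ko/+ (1 at an unadjusted p under 0.05; 0.255%) and 0 in 14-3-3 ko/ko (0; 0.0255%). The inbred wild type itself differed from both mixed ones in 0 of 22 at P0 (3 at an unadjusted p under 0.05; 1% of all genes) and 0 of 24 at P14 (1; 0.244%).

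These counts depend on the choice of control, which the labels do not give. Because the sides also differed in the actin signal at P0, background and RNA quality or labelling cannot be told apart there. Against the mixed wild type of the other side alone, limma called 6 of 22 genes in Lis1 ko/+ (20.7% of all genes), 8 in Lis1 ko/cko (32.8%), 8 in Ndel ko/+ (42.9%), 6 in Ndel ko/cko (33.8%) and 7 in Dcx ko/Y (30%) at P0. At P14 it called 10 of 24 in Lis1 ko/+ (52.6%), 10 in Lis1 ko/cko (59.7%), 7 in Ndel ko/+ (52.3%), 6 in Ndel ko/cko (52.8%) and 7 in the Ndel ko/+ group labelled mix (52.6%). The inbred wild type differed from mixed B alone in 7 of 22 (45.4%) and 6 of 24 (48.6%), and from mixed A alone in 1 each (2.44% at P0 and 4.2% at P14). Against the wild type of the same side alone, 3 calls were made in all. There were none in Lis1 ko/+ (0% of all genes at P0, 0.00813% at P14), Lis1 ko/cko at P0 (2.36%), Ndel ko/cko (3.72% and 0.179%), Dcx ko/Y (0.034%), Ndel ko/+ at P14 (0%) and the group labelled mix (0.968%). Frzb was higher in Ndel ko/+ at P0 (0.53 over mixed B, limma adjusted p = 0.0443, where 9.47% of genes were called), and Dkk3 and Wnt7a differed in Lis1 ko/cko at P14, as follows (13.9%).

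Dkk3 was the 1 gene of the family called against both mixed wild types. In Lis1 ko/cko at P14 it read 10.00, 10.18 and 9.88, above mixed A (9.62, 9.50 and 9.65) and mixed B (8.97, 9.13 and 9.13). For 21.2% of all genes the arrays of Lis1 ko/cko overlapped neither mixed wild type. The Lis1 ko/+ arrays read 9.58, 9.43 and 9.54, close to mixed A, and no array of another group at P14 reached 9.88. Where 6.32% of all genes were called (3.52% higher), its difference was 0.43 ± 0.0967 from mixed A (limma adjusted p = 0.007), 0.94 from mixed B (3.23e-08) and 0.69 on average (adjusted p = 0.0124). The call was lost with all 78 arrays in 1 fit (adjusted p = 0.0895), without Lis1 ko/cko replicate 1 (0.0793) or replicate 2 (0.12), and without mixed A replicate 2 (0.059). Of the other pathway genes tested there, 3 of 54 were called: Ccnd1, a cyclin and Wnt target (-0.60, limma adjusted p = 0.019), Nkd2 (0.53, 0.0188) and the co-repressor Tle3 (0.52, 0.0315).

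Comparing the 2 Lis1 genotypes with each other needs no wild type. At P14, ko/cko differed from ko/+ in 2 of 24 genes, against 8.02% of all genes (5.16% higher, 2.86% lower). Dkk3 was higher (0.51 ± 0.0967, limma adjusted p = 0.00721). Wnt7a read 6.38, 6.45 and 7.09 in ko/cko and 7.27, 7.19 and 7.27 in ko/+, so all 3 ko/cko arrays were lower, replicate 3 only slightly. Of all genes, 18.2% did not overlap between these genotypes. The Wnt7a difference of -0.61 ± 0.158 (limma adjusted p = 0.0232) lost its call in 4 of 6 runs that each left out 1 array (adjusted p up to 0.169), and Dkk3 lost its call in 1, without ko/cko replicate 2 (0.0619). Among other pathway genes Reck, which works with Wnt7 ligands at brain vessels (0.69, limma adjusted p = 0.0382), and Tle3 (0.40, 0.0178) were higher, 2 of 54.

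Beside these P14 values, 4 of 7 oligodendrocyte markers were lower in Lis1 ko/cko than in ko/+ (array means of the list 8.79 to 9.48 against 9.31 to 9.78), 3 of 5 cell cycle markers were lower, and the choroid plexus list ran from 4.72 to 4.99 against 5.40 to 5.69. Their part in the Dkk3 and Wnt7a differences was not tested. The share of all called genes that were higher in ko/cko was 64.3% as deposited, 43.3% with quantile normalization and 53.3% with centring, and both members kept call and direction under these scalings. At P0 limma called 0 of 22 genes between the Lis1 genotypes (4 at an unadjusted p under 0.05), against 0.569% of all genes.

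Between the Ndel genotypes calls were made at birth. At P0, ko/cko differed from ko/+ in 4 of 22 genes, against 9.13% of all genes (5.93% higher, 3.21% lower). Sfrp1 read 8.38, 8.18 and 8.22 in ko/cko and 7.68, 7.61 and 7.83 in ko/+. Fzd2 read 6.94, 7.18 and 7.20 against 6.63, 6.58 and 6.56. Wnt7b read 8.87, 8.73 and 8.83 against 8.39, 8.47 and 8.27. In these 3 the ko/cko arrays were higher without overlap, while Fzd10 was lower without overlap (5.54, 5.55 and 5.37 against 5.87, 5.83 and 5.89).

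The differences were 0.55 ± 0.144 for Sfrp1 (limma adjusted p = 0.0178), 0.51 ± 0.103 for Fzd2 (0.00279), 0.44 ± 0.0916 for Wnt7b (0.00428) and -0.37 ± 0.11 for Fzd10 (0.0316). Leaving out 1 array at a time ended the Fzd10 call in 6 of 6 runs and the Sfrp1 call in 3 of 6 (without ko/+ replicate 1 or 2, or ko/cko replicate 1), leaving 2 or 3 genes called. Mixed B, on the same side as both groups, read 7.74, 8.23 and 8.19 for Sfrp1, overlapping ko/cko. Among other pathway genes 4 of 58 were higher, among them Celsr1, a polarity cadherin (1.28, limma adjusted p = 0.00216), Rspo3 (0.48, 0.0432) and Draxin (0.48, 0.0276).

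Beside these P0 values, 2 of 6 cell cycle markers were higher, 2 of 7 astrocyte markers lower, and of 10 radial glia markers 3 were higher and 1 lower in Ndel ko/cko. Their part was not tested. The share of all called genes higher in ko/cko was 64.9%, with 49.6% and 45.4% under the 2 scalings, under which the 4 Wnt genes kept call and direction. At P14 limma called 0 of 24 genes between the Ndel genotypes (1 at an unadjusted p under 0.05), against 0.309% of all genes.

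**Figure D5:**
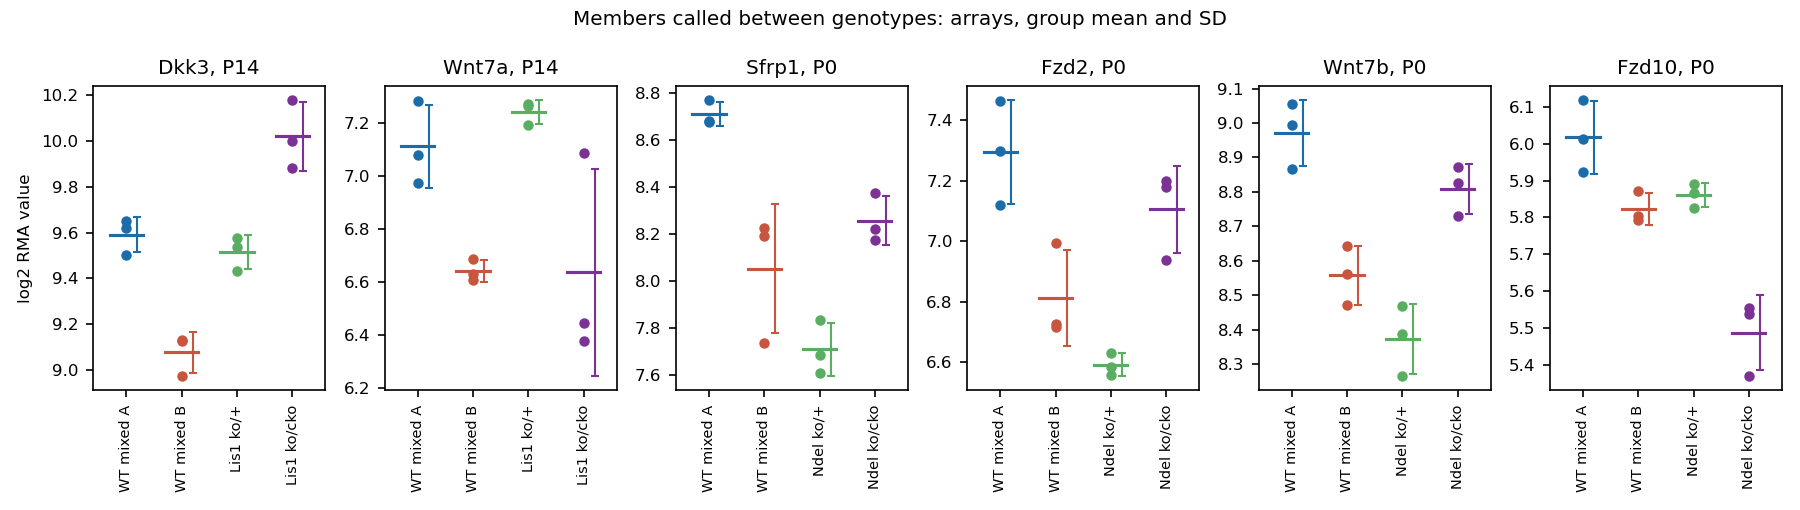
Log2 intensity (y axis) of Dkk3 and Wnt7a at P14 in mixed A, mixed B, Lis1 ko/+ and Lis1 ko/cko, and of Sfrp1, Fzd2, Wnt7b and Fzd10 at P0 in mixed A, mixed B, Ndel ko/+ and Ndel ko/cko (x axis); points are arrays, lines are means and bars are SD (n = 3). Dkk3 is highest in Lis1 ko/cko, and Ndel ko/cko lies above Ndel ko/+ in Sfrp1, Fzd2 and Wnt7b and below it in Fzd10.

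The E14 count for Lis1 ko/cko moved with the arrays of low midbrain, hindbrain and cord level. Limma called no gene of the family with all arrays. Without the 6 arrays, which leaves 1 array each of Lis1 ko/cko and mixed A, assumed to vary like the other groups, it called Fzd3 (-0.42, adjusted p = 0.00434) and Wnt4 (0.80, 0.00987). The 3 Lis1 ko/cko arrays read 11.00, 10.61 and 10.72 for Fzd3 and 6.27, 7.25 and 6.83 for Wnt4, so replicate 2, the array kept, was the lowest and the highest of them.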

How the data were processed

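Total RNA from brain was extracted with Trizol and labelled with biotin by in vitro transcription, per the labels' protocols. The authors deposited 1 log2 value per probe set and array, made with RMA per the submitters' processing notes; its version was not given in the sources used here. Of 45101 probe sets, 34958 had 1 gene symbol in the platform annotation, 932 several, 9147 were not listed there and 64 were controls. The sorted values of 2 arrays of an age were nearly alike (median root mean square difference 0.0342) and those of different ages less so (0.157), so changes with age are given relative to the median gene.

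Limma 3.58.1 (R 4.3.3; lmFit, contrasts.fit, eBayes with a trend on the mean) was fitted on the deposited log2 values of all genes whose highest group mean reached 5.253, with 1 probe set per gene: the wild-type groups in 1 fit, and all groups of an age in another. P-values were adjusted over all genes tested (Benjamini-Hochberg) and called under 0.05. Against both mixed wild types, the larger p was taken where both differences had 1 sign and 1 otherwise, the change was the mean and the SE the larger of the 2. The fits were checked on simulated data.

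The genes and lists were chosen with earlier results of these data known. Values per array are given for up to 5 called rises and 5 falls per step and up to 6 calls elsewhere, and other pathway genes by up to 4 each way per step and 3 elsewhere. Some genes of the lists are not reported here. No 2 arrays were identical (highest correlation 0.997). Same-numbered replicates of different groups did not deviate together (median correlation of deviations -0.00805 at E14, -0.0103 at P0 and 0.012 at P14), so numbers were not used as pairs. Alternatives covered the filter, the probe set, the fit, the scaling, the control and each replicate.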

Additional observations from a re-analysis of the deposited data

Results flagged for a closer look

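For 2 of 26 genes the step from P0 to P14 differed between mixed A and mixed B in a limma fit of all 78 arrays, a test added after the data were seen, where 11.9% of 13053 genes did. Fzd1 fell by 0.74 in mixed B (-0.74) and changed by -0.17 in mixed A, a difference of 0.57 ± 0.183 (SE; limma adjusted p = 0.0309). Its arrays went from 8.11, 8.13 and 8.14 to 7.70, 7.12 and 7.35 in mixed B, and from 8.0, 8.09 and 7.63 to 7.88, 7.60 and 7.73 in mixed A, where the ages overlapped. Fzd4 changed by -0.74 in mixed A and 0.17 in mixed B, a difference of -0.91 ± 0.266 (limma adjusted p = 0.0182). Its arrays went from 6.23, 7.0 and 7.0 to 5.60, 6.16 and 6.27 in mixed A and from 6.39, 6.40 and 6.49 to 6.49, 6.66 and 6.64 in mixed B, and its 2 probe sets moved in opposite directions over this step. For the step from E14 to P0 the same test called 0 of 26 genes, and 9.38% of all genes.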

How the results depend on the processing

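Of 289 counts of called genes under another setting, 257 stayed within 1.5 times the main count, as did 234 of 246 with 1 array left out. Counts of 0 that stayed at 0 are among them. No single call turned its direction, and 27 of 561 and 43 of 566 single values lost their call. Genes that a setting did not test were left out of these values. A call that needed both mixed wild types could not be lost with 1 of them alone. The figures thus overstate how stable the calls are. A stricter filter (7.627, the 75th percentile), which tests fewer genes, left 7 calls from E14 to P0, 7 from P0 to P14 in the mixed and 8 in the inbred background, 3 between mixed A and B at P14, 2 between the Ndel genotypes at P0 and 1 between the Lis1 genotypes at P14, and gave 1 (Wnt7a) between inbred and mixed wild types at P0. With 1 mixed wild type as control, mixed A alone gave 17 calls from E14 to P0, 1 each for the inbred wild type at P0 and P14, 8, 6 and 7 for Ndel ko/+, Ndel ko/cko and Dcx ko/Y at P0, and 2, 7 and 6 for Lis1 ko/cko, Ndel ko/+ and Ndel ko/cko at P14. Mixed B alone gave 7 and 6 for the inbred wild type at P0 and P14, 6, 8 and 1 for Lis1 ko/+, Lis1 ko/cko and Ndel ko/+ at P0, and 10, 10 and 7 for Lis1 ko/+, Lis1 ko/cko and the Ndel ko/+ group labelled mix at P14. All arrays in 1 fit gave 1 call (Fzd2) between mixed A and B at E14, 2 between the Ndel genotypes at P0 and 0 for Lis1 ko/cko at P14. Testing every probe set gave 1 for Ndel ko/+ at P0, 2 for Lis1 ko/cko at P14 and 4 between the Lis1 genotypes at P14, and centring gave 1 (Frzb) for Ndel ko/+ at P0. Without the 6 E14 arrays of low midbrain, hindbrain and cord level, chosen after the data were seen, Lis1 ko/cko at E14 had 2. Leaving out each array in turn gave 0 to 1 for Lis1 ko/cko at E14, 0 to 1 between inbred and mixed wild types at P0, 2 to 3 between the Ndel genotypes at P0, 0 to 1 for Lis1 ko/cko at P14, 0 to 2 between the Lis1 genotypes at P14, 9 to 12 from E14 to P0, and 16 to 18 and 17 to 20 from P0 to P14 in the mixed and inbred backgrounds. With the replicate block, which the pairing check does not back, the counts were 11, 16 and 19 for the 3 steps and 6 and 6 between mixed A and B at P0 and P14, and the calls of Sfrp4 after birth (adjusted p = 0.0723) and Wnt4 at P14 (0.0531) were lost. For most of these settings the number of Wnt genes tested and the share of all genes called are not given here. The counts alone therefore do not tell fewer calls from fewer genes tested. The cause of these shifts was not tested. Signal near background limits the 14 genes under the filter.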
